A study of Homo sapiens with 12 samples.

Results

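The state of U937 cells after 24 h with JS-K was compared with that of vehicle-treated U937 cells, gene by gene across the genome. The comparison held 6 of the 12 arrays of the study, the 3 labelled JS-K 24 H and the 3 labelled Vehicle Control, and these were taken by their labels alone. U937 is an established human line of monocytic leukemia cells. JS-K is a prodrug that releases nitric oxide after reaction with glutathione, and the vehicle was DMSO. The other arrays were 3 at 90 min and 3 at 4 h of JS-K. All 4 groups were of the same line, grown in the same serum-supplemented medium, and each group was made of 3 samples named biological replicates. The labels give no JS-K dose and no exposure time for the vehicle, so the length of culture and the drug cannot be told apart. In RNA from a bulk culture, fewer cells of a kind and less RNA per cell cannot be told apart. No label says that replicates came from separate cultures, so the p-values rest on a spread among samples that may be technical. The late state is not named growth arrest with a monocyte-like change here, and whether the cells had stopped dividing was not tested. Replication genes were lower but mitotic genes higher, and several defining monocyte genes, CD14 among them, were at background. The state is called here by its time.

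Cells that divide copy their DNA in S phase and separate it in mitosis. E2F factors switch on the replication genes, and the DREAM and MuvB complexes act through CHR promoter elements on the mitotic genes. MYC drives ribosome production and nucleotide synthesis, and p21, the product of CDKN1A, inhibits the cyclin-dependent kinases. U937 cells stand between a granule-bearing myeloid progenitor and a monocyte, and agents such as phorbol esters are known to move them toward a macrophage-like state with more integrins, Fc receptors and chemoattractant receptors.

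Signals were log2 values, and 1 probe set was taken for each of 19775 genes. A gene was called when limma's test, fitted across all 12 arrays, gave an adjusted p under 0.05 (Benjamini-Hochberg over all 19775 genes). Differences are JS-K 24 h minus vehicle on the log2 scale, with limma's standard error after the ± sign, unless another comparison is named. In all, 3518 genes (17.8% of those tested) were called higher at 24 h and 3735 (18.9%) were called lower. A change of at least 2-fold was called for 914 genes (4.62%) that were higher and 1402 (7.09%) that were lower. In 82.3% of all genes the 3 arrays at 24 h did not overlap the 3 vehicle arrays, 60.6% with 24 h higher and 21.7% with 24 h lower.

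A mean under 4 on the log2 scale was read as low signal, and 9968 genes (50.4%) were under 4 in both groups. Among those with a mean of at least 4 in either group, 2577 (26.3%) were called higher and 3619 (36.9%) lower. Their median difference was −0.09, against 0.06 over all genes. Low-signal genes lay slightly higher at 24 h. Of the 10178 genes with a mean level under 4, 86.4% had all 3 arrays at 24 h above all 3 vehicle arrays, although their median difference was 0.07. Without JS-K 4 h replicate 2 in the shared fit, 10291 genes were called higher and 4214 lower, while the count with at least a 2-fold rise stayed at 914. For gene lists with many low-signal members, counts are given below only for called changes of at least 2-fold. Each list count below is to be read beside the shares of all genes given above. A count near those shares is no result about its list. A difference with 1 end under 4 is a lower bound on its size, and is written "at least", "or more" or "or lower". Each gene was read from its brightest probe set. When the mean of all its probe sets was used instead, 106 of the 382 called genes that were named by rule moved toward 0 by over 1.5 times, 7 moved away from it by as much, 0 changed sign and 16 lost their call. For genes described below that moved so far, that value is given too.

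**Figure D1:**
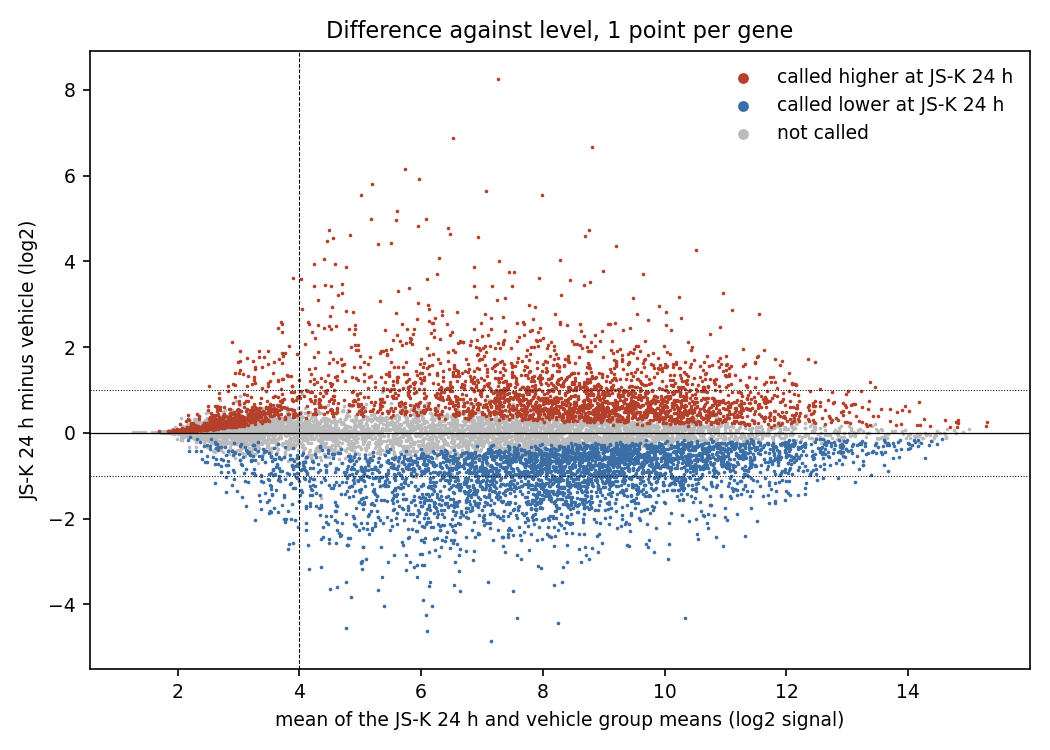
Each point is a gene, placed by its mean level in the JS-K 24 h and vehicle groups (log2 signal, horizontal) and by its difference, JS-K 24 h minus vehicle (log2, vertical). Red points were called higher at 24 h (3518), blue points were called lower (3735) and grey points were not called. The dashed line marks a level of 4 and the dotted lines a 2-fold change.

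Control features also differed between the groups. Poly-A spikes, bacterial RNAs added to a sample before labelling, averaged 8.47 ± 0.05 at 24 h and 3.04 ± 0.05 in vehicle (SD, n = 3 each). Hybridization spikes, added just before the array step, averaged 11.70 ± 0.04 at 24 h and 9.96 ± 0.18 in vehicle. Probe sets for 28S ribosomal RNA averaged 8.03 ± 0.16 at 24 h and 6.59 ± 0.13 in vehicle, and the 3′ minus 5′ difference of ACTB, a measure of RNA integrity, was 0.96 ± 0.04 at 24 h and 0.80 ± 0.03 in vehicle. Each of these separated the groups without overlap, and their part in the results was not tested.

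EMP1, an epithelial membrane protein gene, had the largest measured rise among genes with non-overlapping arrays and a mean of at least 6. It had signals of 11.42, 11.41 and 11.34 at 24 h, against 3.12, 3.14 and 3.13 in vehicle. The fold was at least 305 (difference 8.25 or more, adjusted p = 1.81e-10). C5AR1, the receptor for the complement fragment C5a, 6.87 or more, MMP1, the interstitial collagenase, 6.66 ± 0.12, and IER3, an early response gene, 6.16 or more, were also high in that order of measured values, which the bounds leave unfixed. GPR34, a lysophosphatidylserine receptor, differed by 5.91 or more, TDO2, a tryptophan dioxygenase, by 5.55 or more, PSD3, an exchange factor for ARF6, by 4.99 or more and FABP4, a fatty acid binding protein of macrophages and fat cells, by 4.82 or more. GPR34, TDO2, PSD3 and FABP4 were all under 4 in vehicle, and TDO2 was also low at 4 h (2.43). With the mean of all probe sets, the difference was 3.52 for EMP1, 2.80 for TDO2 and 2.47 for FABP4.

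PLAC8, a gene of myeloid progenitors, had the largest measured fall. Its signals were 5.04, 5.49 and 3.62 at 24 h, against 9.64, 9.49 and 9.56 in vehicle. The 24 h arrays spread over almost 2 log2 units and still lay wholly below vehicle (−4.85 ± 0.35, adjusted p = 2.74e-07). The other large falls were of genes with varied roles. They included PUS7, a pseudouridine synthase of RNA (−4.32 ± 0.17), FERMT1, an integrin activator (−4.25 or lower, under 4 at 24 h), DEPTOR, an inhibitor of mTOR (−4.04 or lower, under 4 at 24 h), GEMIN5, an snRNA-binding protein (−3.69 ± 0.38), SLC29A1, a nucleoside transporter (−3.68 ± 0.15), QTRT1, a tRNA queuine enzyme (−3.67 or lower, under 4 at 24 h), ART3, an ADP-ribosyltransferase family gene (−3.64 or lower, under 4 at 24 h) and UNG, the uracil DNA glycosylase (−3.56 ± 0.12). MDN1, an AAA ATPase of large ribosomal subunit assembly, also fell (−3.91 ± 0.29). The mean of all probe sets gave −2.46 for FERMT1, −1.99 for DEPTOR and −1.86 for MDN1.

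MYC and CDKN1A changed in opposite ways. MYC, the transcription factor of growth, had signals of 8.25, 8.16 and 8.14 at 24 h, against 12.60, 12.42 and 12.44 in vehicle. Its 24 h arrays lay far below vehicle, a 19.8-fold fall (−4.31 ± 0.08, adjusted p = 4.31e-12), and below the 4 h arrays too (24 h minus 4 h −1.52 ± 0.08, adjusted p = 6.44e-08). CDKN1A, which encodes p21, had 10.85, 10.60 and 10.80 at 24 h, against 5.21, 5.22 and 5.21 in vehicle. No array of 24 h came near the vehicle range, and the rise was 46.4-fold (5.54 ± 0.13, adjusted p = 1.92e-11).

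Of the 11 measured CDK inhibitor and D cyclin genes, 5 rose and 3 fell. Over all genes tested 17.8% were called higher and 18.9% lower. Among those with a mean of at least 4 in either group the shares were 26.3% and 36.9%. This count and that of the MYC network below, with 11 genes each, are to be read beside these shares. CDKN2B, encoding p15, was under 4 in vehicle and rose at least 8.58-fold (3.10 or more), CDKN2D, encoding p19, changed by 2.06 ± 0.15, and CCND3, the D cyclin of many blood cells, by 1.65 ± 0.11. CCND2 fell (−2.36 ± 0.13), as did CDK4, the kinase that D cyclins activate (−1.45 ± 0.09). CCND1 was at background in both groups (2.55 ± 0.01 at 24 h and 2.46 ± 0.05 in vehicle, SD, n = 3 each), where the fit of the 6 arrays alone called it higher (limma, adjusted p = 0.0157). In the MYC network (11 measured, 4 higher and 4 lower, and 2 higher with the mean of all probe sets), MXD1, a MYC antagonist that binds the same partner, rose by 2.40 ± 0.10, MXD3 by 0.90 ± 0.14, and the partner MAX fell (−0.49 ± 0.05). Averaged over all their probe sets, values were 1.56 for CDKN2B, 1.06 for CDKN2D, 0.84 for CCND3, −1.20 for CCND2 and 1.46 for MXD1.

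Genes of DNA replication fell almost together. Of 38 measured members 35 were called lower and 0 higher, 25 of them by at least 2-fold, with a list median of −1.26 beside 0.06 over all genes. MCM2, a subunit of the replicative helicase, had 9.25, 9.52 and 9.29 at 24 h, against 11.72, 11.71 and 11.68 in vehicle. These ranges did not overlap, and the fall was 5.09-fold (−2.35 ± 0.09, adjusted p = 1.97e-09). MCM10, a replication initiator, had 3.52, 4.95 and 4.00 at 24 h, against 8.23, 8.08 and 8.27 in vehicle. Its 24 h arrays varied by over 1 log2 unit, and the difference was −4.04 ± 0.31 (adjusted p = 3.95e-07). Over the mean of probe sets the difference came to −2.10 for MCM10.

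CDC6, which loads the helicase, fell by 3.54 ± 0.14, GINS2, a helicase cofactor, by 2.86 ± 0.09, MCM3 by 2.44 ± 0.10 and ORC1, of the origin recognition complex, by 2.31 ± 0.14. The members not called were ORC6, PRIM2 and LIG1. In the E2F, RB and S-phase cyclin list 10 of 15 fell and 3 rose, 6 falls being at least 2-fold. CCNE1, cyclin E1, fell by 3.19 ± 0.35, CDC25A, a phosphatase that activates CDK2, by 1.87 ± 0.19, and CCNE2, cyclin E2, by 1.15 ± 0.11. CCNA2, cyclin A2, rose by 0.96 ± 0.11 and RB1, the retinoblastoma gene, by 0.75 ± 0.11, a call that ended with the mean of its probe sets (adjusted p = 0.079). As a mean over probe sets, differences were −1.01 for GINS2, −1.57 for CCNE1 and 0.21 for RB1.

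The replication genes are shown with their promoters because 12 of the 31 called-lower members with a promoter window (38.7%) held an E2F-type motif, TTTNNCGC, in the 250 bases before the start, against 7.46% of the 15384 tested genes with a window. A match on either strand was counted. Genes on a chromosome that was set aside were not ranked for display. Among the rest, the 4 with the largest falls and a motif in the last 120 bases follow. They are given 5′ to 3′ on the coding strand, with matches in capitals, from RefSeq (GRCh38.p14).
GINS2: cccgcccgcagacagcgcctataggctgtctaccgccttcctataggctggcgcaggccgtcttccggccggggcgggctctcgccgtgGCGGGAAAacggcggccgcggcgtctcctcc
POLE2: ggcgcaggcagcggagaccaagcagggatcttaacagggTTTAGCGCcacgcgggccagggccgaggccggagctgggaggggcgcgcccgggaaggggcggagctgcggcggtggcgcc
POLA2: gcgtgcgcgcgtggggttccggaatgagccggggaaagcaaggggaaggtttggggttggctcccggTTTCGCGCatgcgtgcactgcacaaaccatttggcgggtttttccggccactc
MCM7: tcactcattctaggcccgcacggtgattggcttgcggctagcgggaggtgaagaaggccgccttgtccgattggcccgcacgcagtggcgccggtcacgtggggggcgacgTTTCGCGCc
GINS2 lies on the minus strand at chr16:85688955-85689074, POLE2 (minus strand) at chr14:49688215-49688334, POLA2 (plus strand) at chr11:65261842-65261961 and MCM7 (minus strand) at chr7:100101398-100101517. POLE2, a subunit of DNA polymerase epsilon, fell by 1.98 ± 0.09, POLA2, of the primase complex, by 1.25 ± 0.10, and MCM7, of the helicase, by 1.20 ± 0.08. A match is a string of letters and does not show binding.

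Mitotic genes went the other way. Of 53 measured members of the mitosis and spindle list 49 were called higher and 1 lower (0 lower with the mean of all probe sets), 30 of the rises being at least 2-fold, and the median was 1.13. CCNB1, cyclin B1, had 12.63, 12.77 and 12.69 at 24 h, against 11.53, 11.60 and 11.57 in vehicle. The groups did not overlap and the rise was 2.19-fold (1.13 ± 0.05, adjusted p = 5.04e-09). PLK1, a kinase of mitotic entry and exit, had 10.55, 10.60 and 10.59 at 24 h, against 8.50, 8.49 and 8.65 in vehicle, with all 24 h arrays above all vehicle arrays (2.03 ± 0.10, adjusted p = 1.07e-08).

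CDC25B, a phosphatase that activates CDK1, rose by 2.11 ± 0.08, the kinesin CENPE by 1.85 ± 0.09, the spindle factor HMMR by 1.80 ± 0.09, the kinase NEK2 by 1.79 ± 0.07 and CDCA8, of the chromosomal passenger complex, by 1.74 ± 0.09. BUB3, a spindle checkpoint gene, was the 1 lower member (−0.33 ± 0.08), a call that ended after quantile normalization and with the mean of all its probe sets. CDK1 (−0.04), CDC25C (0.39) and INCENP (0.35) were not called. MKI67, the proliferation marker Ki-67, had 11.50, 11.39 and 11.41 at 24 h, against 10.94, 10.79 and 10.87 in vehicle. Its ranges did not overlap, with a rise of 0.57 ± 0.07 (adjusted p = 3.8e-05). Cell numbers and cell cycle phases were not analysed here. When all probe sets were averaged, differences were −0.09 for BUB3 and 0.94 for MKI67.

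The mitotic promoters are shown for another motif, and the difference in its share was not tested. TTTGAA, the CHR element (TTCAAA on the other strand), was in 21 of 42 windows of called-higher mitosis genes (50.0%), in 0 of 31 windows of called-lower replication genes and in 10.6% of all tested genes with a window. The E2F-type motif was in 11.9% of the mitotic windows. Genes on the chromosome set aside above were again not ranked. Among the rest, the 4 mitosis genes with the largest rises and a CHR in the last 120 bases are shown. CHR matches are in capitals, from the same RefSeq table.
PLK1: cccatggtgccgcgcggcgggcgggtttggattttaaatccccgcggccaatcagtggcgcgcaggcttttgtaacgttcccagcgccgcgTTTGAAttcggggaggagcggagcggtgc
HMMR: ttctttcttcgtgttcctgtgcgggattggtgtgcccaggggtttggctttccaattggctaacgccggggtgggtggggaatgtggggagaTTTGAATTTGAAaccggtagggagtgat
CDCA8: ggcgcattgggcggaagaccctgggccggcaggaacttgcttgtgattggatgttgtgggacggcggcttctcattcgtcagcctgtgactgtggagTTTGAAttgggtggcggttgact
KIF18A: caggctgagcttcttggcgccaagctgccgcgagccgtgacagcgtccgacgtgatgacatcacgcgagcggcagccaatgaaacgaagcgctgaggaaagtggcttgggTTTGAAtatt
PLK1 lies on the plus strand at chr16:23678769-23678888, HMMR (plus strand) at chr5:163460512-163460631, CDCA8 (plus strand) at chr1:37692396-37692515 and KIF18A (minus strand) at chr11:28108157-28108276. KIF18A, a kinesin that positions chromosomes, changed by 1.73 ± 0.12. In all 4 the nearest match began within 30 bases of the start, and HMMR held 2 matches end to end. An AP-1-type motif (TGANTCA, either strand) was in 0 of 14 windows of called-higher immediate early genes, against 5.03% of all. A PU.1-type motif (GAGGAAGT, either strand) was in 1 of 10 windows of called-higher Fc receptor and TREM genes, against 2.21% of all. The MYC E-box (CACGTG, the same on both strands) was in 2 of 27 windows of called-lower ribosome biogenesis genes (7.41%), against 7.83% of all.

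**Figure D2:**
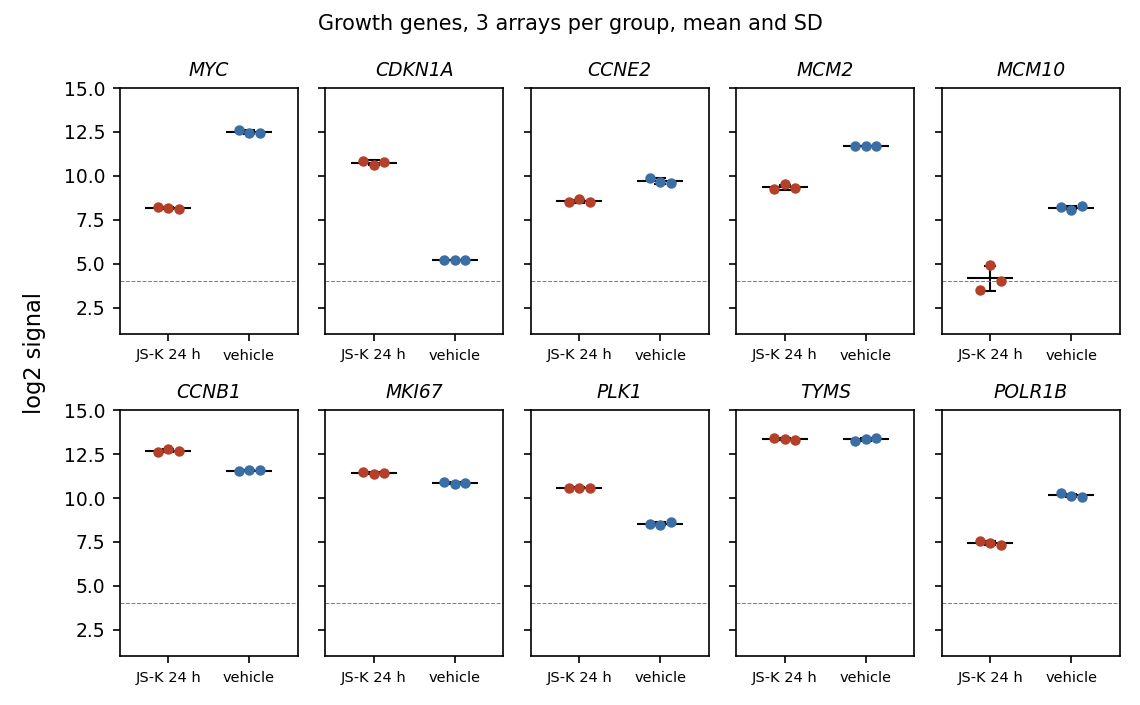
Log2 signal of 10 growth genes on each of 3 JS-K 24 h arrays (red, left in each panel) and 3 vehicle arrays (blue, right), with the mean and SD in black and the low-signal level of 4 dashed. MYC, MCM2, MCM10, CCNE2 and POLR1B lay lower at 24 h, CDKN1A, CCNB1, MKI67 and PLK1 lay higher, and TYMS overlapped.

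Repair and nucleotide genes were mostly lower too. Of 20 measured homologous recombination and checkpoint genes 16 fell and 0 rose (median −0.95), including EXO1, an exonuclease (−2.35 ± 0.10), ATR, the replication stress kinase (−1.61 ± 0.14), and TOPBP1, which activates ATR (−1.09 ± 0.06). In nucleotide and folate synthesis 19 of 27 fell and 0 rose (median −1.24), and 14 falls were at least 2-fold. The count of rises was up to 3 in other settings, among them without JS-K 4 h replicate 2. PPAT, the first enzyme of purine synthesis, had 6.44, 6.49 and 6.25 at 24 h, against 9.56, 9.46 and 9.60 in vehicle. The 24 h arrays were all lower and the fall was 8.84-fold (−3.14 ± 0.13, adjusted p = 2.04e-09). PFAS (−2.40 ± 0.11), PAICS (−2.22 ± 0.07) and GART (−1.86 ± 0.08), later purine enzymes, fell too, and DHODH of pyrimidine synthesis fell at least 8.67-fold. With the mean of all probe sets, the difference was −1.25 for DHODH.

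Not every S-phase gene moved. TYMS, thymidylate synthase, had 13.40, 13.35 and 13.30 at 24 h, against 13.26, 13.38 and 13.40 in vehicle, and RRM2, a ribonucleotide reductase subunit, had 13.11, 13.05 and 13.09 at 24 h, against 12.99, 13.02 and 13.07 in vehicle. Both overlapped between the groups and were not called (0.00 ± 0.05, adjusted p = 0.981, and 0.06 ± 0.05, adjusted p = 0.335). RRM2B, another ribonucleotide reductase subunit, rose by 2.13 ± 0.07. Among histone genes (14 measured, 6 of them low in both groups), H2BC12 rose by 2.57 ± 0.09, and SLBP, which binds histone mRNA, fell by 1.15 ± 0.06. In the DNA methylation and PRC2 list (14 measured), UHRF1 (−1.08 ± 0.09) and DNMT1 (−0.99 ± 0.06), which maintain methylation at replication, fell, and DNMT3B, a de novo methyltransferase, rose by 1.98 ± 0.11.

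Ribosome assembly genes had the lowest median of the 65 gene lists. Of 36 measured ribosome biogenesis genes 33 were called lower and 0 higher, 31 of them by at least 2-fold, with a median of −1.63. Without JS-K 4 h replicate 2, or after quantile normalization, the count of rises was 1. POLR1B, a core subunit of RNA polymerase I, had 7.57, 7.47 and 7.34 at 24 h, against 10.26, 10.11 and 10.08 in vehicle. Its 24 h arrays lay below all vehicle arrays (−2.69 ± 0.09, adjusted p = 5.32e-10). The polymerase subunit POLR1C (−2.63 ± 0.16) and the assembly factors BYSL (−2.67 ± 0.33), MRTO4 (−2.62 ± 0.09) and WDR74 (−2.50 ± 0.13) fell as well. RRN3, UBTF and NOP10 were not called. Over the same arrays the probe set for the 45S ribosomal RNA precursor gene RNA45SN5 was higher at 24 h (10.22 ± 0.12, against 6.66 ± 0.21 in vehicle, SD, n = 3 each, difference 3.55 ± 0.26), and so were the 28S probe sets and the spikes given above. More precursor and more ribosomal RNA carried through labelling cannot be told apart here. The mean of all probe sets gave −0.98 for WDR74.

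Genes for the ribosome's own proteins moved little. Of 33 measured cytosolic ribosomal protein genes 11 fell and 1 rose, no change reached 2-fold (2 falls did with the mean of all probe sets), and the median was −0.11. Among all genes with a mean of at least 4 in either group 36.9% were called lower, which the count of 11 falls is near. That count was 7 without JS-K 24 h replicate 3 and 19 without JS-K 4 h replicate 2. The 1 rise, RPLP2 at low signal, ended without any 1 array of either group. Translation initiation factors fell in 23 of 29 and rose in 3 (median −0.63), with EIF2B3 (−1.94 ± 0.18), EIF3B (−1.61 ± 0.11) and EIF4EBP1, an inhibitor of cap-dependent translation (−1.53 ± 0.07), lower. EIF4E, the cap-binding protein, rose by 0.54 ± 0.12. Of 7 measured subunits of the CCT chaperonin, which folds actin and tubulin, 7 fell (median −0.70), by up to 1.05 ± 0.08 for CCT2. Averaged over all their probe sets, values were 0.34 for EIF4E.

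Nuclear genes for the mitochondrion's translation machinery also fell. Of 48 mitochondrial ribosomal protein genes 43 fell and 0 rose (median −0.93), with MRPL24 (−2.02 ± 0.09) and MRPS2 (−1.98 ± 0.17) among the lowest. Mitochondrial tRNA synthetase genes fell in 13 of 15 and rose in 0 (median −1.09). MARS2, the methionyl synthetase, had 4.26, 3.52 and 3.57 at 24 h, against 8.44, 8.22 and 8.57 in vehicle. No vehicle array was near the 24 h range, and the fall was at least 24.7-fold (−4.63 or lower, adjusted p = 5.52e-09). NARS2 (−2.10 ± 0.11) and EARS2 (−2.28 ± 0.21) fell in the same list.

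In mitochondrial DNA maintenance 9 of 14 fell and 3 rose (7 falls of at least 2-fold, and 4 with the mean of all probe sets). TWNK, the helicase, fell by 3.08 ± 0.38, TFAM, which packages the DNA, by 1.69 ± 0.14, and POLRMT, the RNA polymerase, by 2.82-fold, while TK2, a mitochondrial thymidine kinase, rose by 1.49 ± 0.16. The respiratory chain list fell in 24 of 37 and rose in 1 (0 with the mean of all probe sets), mostly by little (median −0.36, 2 falls of at least 2-fold, and 4 after array medians were subtracted). NDUFA10 (−1.22 ± 0.11) and NDUFA8 (−1.20 ± 0.11), of complex I, fell. TCA cycle, pentose phosphate and NADPH genes fell in 19 of 25 (median −0.49), among them RPIA, of the pentose phosphate pathway (−1.37 ± 0.08), and IDH3A, of the TCA cycle (−1.12 ± 0.07). Over the mean of probe sets the difference came to −0.54 for POLRMT, 0.72 for TK2 and −0.24 for NDUFA10.

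**Figure D3:**
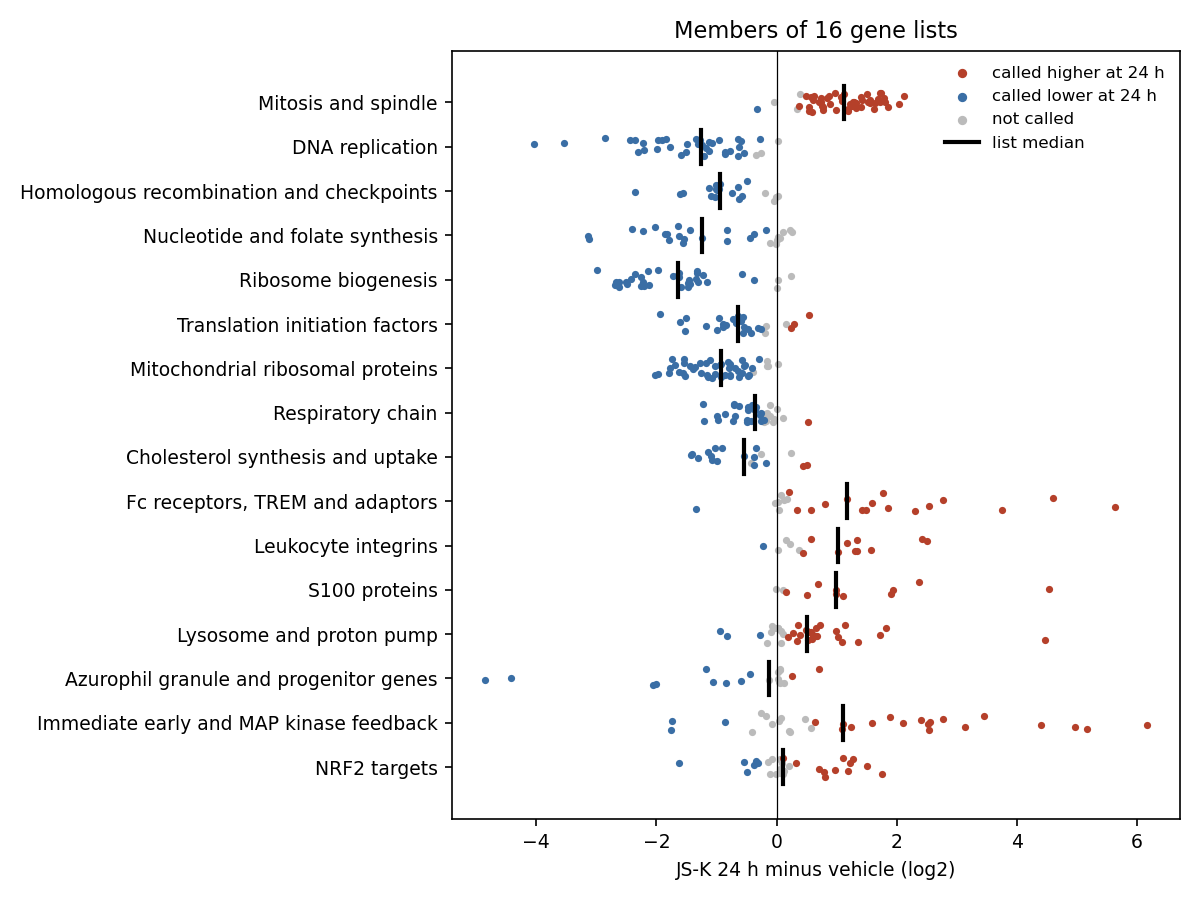
Each point is a measured member of 1 of 16 gene lists, placed by its difference, JS-K 24 h minus vehicle (log2). Red points were called higher at 24 h, blue points lower and grey points were not called, and the black bar is the list median. Of 53 mitosis genes 49 are red (median 1.13), and most replication (median −1.26) and ribosome biogenesis (median −1.63) genes are blue.

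Cholesterol genes were mostly lower than in vehicle and higher than at 4 h. Of 19 measured cholesterol synthesis and uptake genes 14 were lower than in vehicle and 2 higher (median −0.53), while 13 were higher than at 4 h and 0 lower. HMGCS1, HMG-CoA synthase, had 7.65, 7.46 and 7.64 at 24 h, against 8.85, 9.13 and 8.97 in vehicle, without overlap (−1.40 ± 0.11, adjusted p = 3.75e-07). It was higher at 24 h than at 4 h by 1.02 ± 0.11 (adjusted p = 1.27e-05). INSIG1, the sterol sensor partner, gave −1.43 ± 0.08 against vehicle and 0.67 ± 0.08 against 4 h. SREBF2, the transcription factor of the pathway, was above vehicle (0.52 ± 0.13). As a mean over probe sets, differences were −2.12 for HMGCS1.

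FASN, fatty acid synthase, fell by 2.18 ± 0.22 and ACACA, acetyl-CoA carboxylase, by 2.03 ± 0.18, and neither differed from 4 h past the threshold (adjusted p = 0.114 and 0.791). In fatty acid synthesis 4 of 10 genes were higher than at 4 h and 1 lower. In the sterol efflux and lipid handling list 3 of 19 genes rose and 1 fell by at least 2-fold (median 0.11), the rises being of FABP4, PLIN2, which coats lipid droplets (3.17 ± 0.07), and PPARG, a nuclear receptor of lipid genes (1.17 ± 0.16). SCARB1, an HDL receptor, was lower in the probe set used (−1.55 ± 0.15), with another of its probe sets called in the opposite direction. In glycolysis SLC2A3, a glucose transporter, rose by 1.24 ± 0.13 and PFKFB3, which makes an activator of glycolysis, by 1.21 ± 0.11, while SLC2A5, a fructose transporter, fell by 1.34 ± 0.11. When all probe sets were averaged, differences were −1.08 for FASN, −1.12 for ACACA, 1.65 for PLIN2 and −0.97 for SCARB1.

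Myeloid surface genes rose in part. Of 25 measured monocyte and macrophage markers 9 rose and 2 fell by at least 2-fold (1 fell so with the mean of all probe sets), and 10 were at low signal in both groups. CSF1R, the receptor for macrophage colony-stimulating factor, had 6.87, 7.32 and 6.78 at 24 h, against 4.46, 4.49 and 3.60 in vehicle. All 24 h arrays were above vehicle (2.80 ± 0.23, adjusted p = 9.31e-07). S100A9 (2.37 ± 0.11) and S100A8 (1.91 ± 0.14), calcium-binding proteins of monocytes and neutrophils, rose. With the mean of all probe sets, the difference was 1.03 for S100A8.

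Other monocyte genes stayed at background. CD14, the lipopolysaccharide co-receptor, was at background, with 2.21, 2.21 and 2.23 at 24 h, against 2.14, 2.17 and 2.16 in vehicle, and so was FCGR1A, the high-affinity IgG receptor, with 2.23, 2.23 and 2.24 at 24 h, against 2.20, 2.21 and 2.20 in vehicle. Neither was called in the fit of all 12 arrays (adjusted p = 0.0989 and 0.208), and both were called higher, CD14 by 0.06 and FCGR1A by 0.03 (limma, adjusted p = 0.0028 and 0.00883), in a fit of the 6 arrays alone. The macrophage genes CD163 (2.65 ± 0.03 at 24 h and 2.53 ± 0.03 in vehicle), MRC1 (2.44 ± 0.003 at 24 h and 2.39 ± 0.01 in vehicle) and C1QA (2.25 ± 0.001 at 24 h and 2.19 ± 0.01 in vehicle, SD, n = 3 each), of which only C1QA was called higher, by 0.06 ± 0.02, were near the level of the trp probe sets (2.63 at 24 h and 2.53 in vehicle), a bacterial RNA control that read as background. MS4A7, a macrophage membrane gene, fell by 1.93 ± 0.09.

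Most Fc receptor, TREM and adaptor genes were higher. Of 23 measured 16 were called higher and 1 lower, 12 rises being at least 2-fold. The list median was 1.17 and was 0.63 with the mean of all probe sets. TREM1, an amplifier of myeloid inflammation, had 9.91, 9.94 and 9.79 at 24 h, against 4.40, 4.35 and 3.96 in vehicle. Its groups were far apart, a 49.9-fold rise (adjusted p = 1.29e-09). FCAR, the IgA receptor, rose by 4.60 ± 0.18, PILRA, an inhibitory receptor, by 3.75 ± 0.14, FCER1G, the signalling chain shared by Fc receptors, by 2.77 ± 0.07, FCGR2A, a low-affinity IgG receptor, by 2.54 ± 0.09 and CLEC5A by 2.30 ± 0.06. SIRPB1 was the lower member, under 4 at 24 h (−1.34 or lower). The mean of all probe sets gave 1.33 for FCGR2A and −0.57 for SIRPB1.

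Chemoattractant receptors held large rises and many members at low signal. Of 19 measured, 6 rose and 1 fell by at least 2-fold and 7 were low in both groups. C5AR1 had 9.91, 10.11 and 9.83 at 24 h, against 3.16, 3.17 and 2.92 in vehicle, and FPR1, the formyl peptide receptor, had 8.14, 8.13 and 8.01 at 24 h, against 2.14, 2.45 and 2.30 in vehicle. Both were under 4 on every vehicle array and above it on every 24 h array, by at least 117-fold (adjusted p = 1.64e-11) and at least 55.7-fold (adjusted p = 3.59e-08). FPR2 (3.88 ± 0.21), the complement receptor C3AR1 (3.15 ± 0.14) and the chemokine receptor CCR1 (2.54 ± 0.13) rose too. P2RY2, a nucleotide receptor, fell at least 14.2-fold. Averaged over all their probe sets, values were 2.98 for FPR1.

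Of 15 leukocyte integrin genes and their regulators 10 rose and 1 fell, 8 rises being at least 2-fold (median 1.02). These became 4 rises and a median of 0.54 with the mean of all probe sets. ITGAM, the alpha chain of Mac-1, had 9.21, 9.04 and 9.14 at 24 h, against 7.59, 7.59 and 7.50 in vehicle, without overlap (1.57 ± 0.08, adjusted p = 1.6e-08). ITGAX, which encodes CD11c, had 5.93, 5.77 and 5.48 at 24 h, against 3.25, 3.39 and 3.27 in vehicle. It rose at least 5.36-fold (adjusted p = 7.37e-08). ITGAL, the alpha chain of LFA-1, rose by 2.51 ± 0.17. The fall of ITGA4 (−0.22 ± 0.07) ended after quantile normalization, without JS-K 24 h replicate 1 or 2 and without vehicle replicate 1 or 3. Over the mean of probe sets the difference came to 0.80 for ITGAM, 1.26 for ITGAX and −0.34 for ITGA4.

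**Figure D4:**
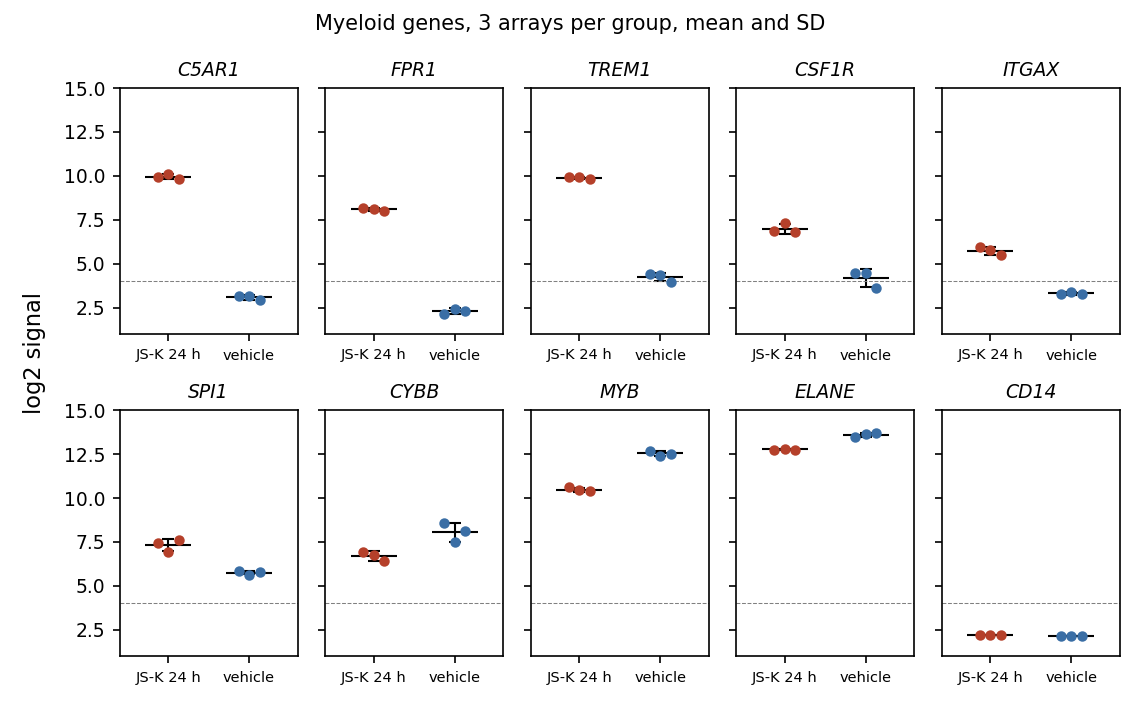
Log2 signal of 10 myeloid genes on each of 3 JS-K 24 h arrays (red, left in each panel) and 3 vehicle arrays (blue, right), with the mean and SD in black and the low-signal level of 4 dashed. C5AR1, FPR1, TREM1, CSF1R, ITGAX and SPI1 lay higher at 24 h, CYBB, MYB and ELANE lay lower, and CD14 stayed near 2.2 in both groups.

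Among S100 genes 10 of 12 were called higher, 5 by at least 2-fold, and 0 lower. S100A2 rose at least 23.2-fold and S100A10, a partner of annexin A2, by 1.93 ± 0.10. Lysosome and proton pump genes rose in 24 of 36 and fell in 3, mostly by less than 2-fold (median 0.51). CTSB, a cathepsin, rose by 1.73 ± 0.07, PSAP, the saposin precursor, by 1.09 ± 0.10, and TFE3, a transcription factor of lysosomal genes, by 1.83 ± 0.08. LIPA, the lysosomal acid lipase, fell by 0.82 ± 0.08. The 3 falls became 5 without JS-K 4 h replicate 2 and 7 with the mean of all probe sets. As a mean over probe sets, differences were −0.38 for LIPA.

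The phagocyte NADPH oxidase showed both directions. CYBB, which encodes its membrane catalytic subunit gp91phox, had 6.94, 6.75 and 6.42 at 24 h, against 8.56, 7.50 and 8.11 in vehicle. The groups did not overlap, and CYBB fell by 1.36 ± 0.24 (adjusted p = 0.00054). NCF1, encoding the cytosolic subunit p47phox, had 6.07, 6.03 and 6.03 at 24 h, against 4.14, 4.28 and 4.43 in vehicle. It rose by 1.76 ± 0.13 (adjusted p = 4.09e-07), as did NCF4, encoding p40phox (1.68 ± 0.08), and RAC2, the small GTPase of the complex (1.17 ± 0.07). When all probe sets were averaged, differences were −0.89 for CYBB.

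LY96, which encodes MD-2, the partner of Toll-like receptor 4, had 8.74, 8.78 and 8.98 at 24 h, against 4.17, 4.21 and 3.80 in vehicle. The vehicle arrays lay near 4 and the rise was 27.3-fold (adjusted p = 6.11e-10). TLR1 rose at least 10.7-fold, TLR2 by 1.26 ± 0.13 and NOD2, a sensor of bacterial wall fragments, at least 4.02-fold, 6 of 21 genes of the list rising by at least 2-fold. CD86, a T cell costimulatory ligand, averaged 6.84 at 24 h, against 2.12 in vehicle, at least 26.5-fold. In MHC class II 0 of 12 genes rose by at least 2-fold, and HLA-DOB fell at least 4.21-fold. With the mean of all probe sets, the difference was 2.43 for CD86 and −1.01 for HLA-DOB.

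MMP1 had 12.21, 12.11 and 12.11 at 24 h, against 5.73, 5.22 and 5.50 in vehicle. No overlap was near, and the rise was 101-fold (adjusted p = 2.93e-12). It was 1 of 3 genes among 19 matrix proteases and inhibitors with a rise of at least 2-fold, the others being MMP25, a membrane protease of leukocytes (1.85 ± 0.27), and TIMP2, an inhibitor (2.82-fold). In the urokinase system PLAUR, the urokinase receptor (2.83 ± 0.10), PLAU, urokinase (1.89 ± 0.10), and THBD, thrombomodulin (3.74 ± 0.15), rose, while SERPINE2, a protease inhibitor, fell (−1.65 ± 0.10). PLAU and PLAUR did not differ from 4 h past the threshold (adjusted p = 0.23 and 0.167). The mean of all probe sets gave 1.03 for MMP25 and −0.80 for SERPINE2.

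Granule and progenitor genes fell in 9 of 19, 6 by at least 2-fold. Of all genes tested 18.9% were called lower, and of those with a mean of at least 4 in either group 36.9%. MS4A3, a gene of granulocyte-monocyte progenitors, had 6.06, 5.89 and 6.18 at 24 h, against 10.45, 10.45 and 10.50 in vehicle. The fall was 21.5-fold (adjusted p = 1.01e-11), and the gene had not fallen at 4 h (mean 10.76). PRTN3, proteinase 3, fell by 2.00 ± 0.10 and CTSG, cathepsin G, by 1.05 ± 0.06. ELANE, neutrophil elastase, had 12.74, 12.81 and 12.75 at 24 h, against 13.49, 13.65 and 13.69 in vehicle, lower at 24 h by 0.84 ± 0.10 (adjusted p = 2.86e-05). MPO, myeloperoxidase, was at background in both groups (2.42 ± 0.0017 at 24 h and 2.37 ± 0.02 in vehicle, SD, n = 3 each), and was called higher there in the fit of the 6 arrays alone (limma, adjusted p = 0.00614).

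Transcription factors of the lineage moved in both directions, 7 of 33 higher and 4 lower by at least 2-fold. MYB, a factor of progenitor growth, had 10.60, 10.43 and 10.40 at 24 h, against 12.68, 12.42 and 12.51 in vehicle. It fell by 2.06 ± 0.09 without overlap (limma, adjusted p = 2.54e-09). IRF8 (−1.91 ± 0.10), which favours monocytes over granulocytes, and GFI1 (−1.81 ± 0.12), a transcriptional repressor that acts in the granulocyte lineage, fell too. SPI1, encoding PU.1, the main myeloid factor, had 7.46, 6.95 and 7.59 at 24 h, against 5.84, 5.65 and 5.77 in vehicle. It rose by 1.58 ± 0.19 (adjusted p = 2.11e-05). PRDM1 rose at least 15.2-fold and KLF6 by 2.40 ± 0.07. CEBPB, a factor of macrophage genes, was called at 0.28 ± 0.10, a call that ended without any 1 array of either group, and KLF4 was not called (adjusted p = 0.54). Averaged over all their probe sets, values were 1.94 for PRDM1.

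Most markers of other cell types were low in both groups. Of 12 T cell markers 12 were under 4 in both groups, as were 8 of 9 NK, 9 of 10 B and plasma cell, 8 of 8 megakaryocyte, 6 of 8 erythroid, 13 of 15 dendritic, 10 of 15 granulocyte maturation and 10 of 11 epithelial and fibroblast markers, and 0 of these rose by at least 2-fold. Rises of at least 2-fold lay among osteoclast markers, in 3 of 7. These were ATP6V0D2, a proton pump subunit (at least 22.3-fold), DCSTAMP, a cell fusion gene (at least 21.6-fold), and CTSK, cathepsin K (at least 2.89-fold). The log2 of the summed signal of the 7 ranged from 8.47 to 8.96 at 24 h and from 6.29 to 6.63 in vehicle. Their median was 0.64 and was 0.10 with the mean of all probe sets. Of 13 measured U937 markers 12 were above 4 in a group, MPO being the exception, and their summed signal was 15.45 to 15.48 at 24 h and 15.55 to 15.68 in vehicle. BATF3, a dendritic cell factor, fell by 2.47 ± 0.30 and PAX5, a B cell factor, by 1.65 ± 0.29. Over the mean of probe sets the difference came to −0.83 for PAX5.

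A minority of inflammatory mediators rose. CXCL8, the neutrophil chemokine interleukin-8, had 11.10, 11.15 and 11.12 at 24 h, against 6.38, 6.33 and 6.47 in vehicle. It was 26.5-fold higher than in vehicle (adjusted p = 1.8e-13) and below its 4 h level (−0.74 ± 0.06). CCL2, a monocyte chemoattractant, rose by 4.26 ± 0.07 and CCL7 at least 5.98-fold, 5 of 22 chemokine genes rising by at least 2-fold and 15 being low in both groups. In the cytokine and receptor list 8 of 34 rose by at least 2-fold (5 with the mean of all probe sets), among them IL1B (at least 7.11-fold), IL10RA, the interleukin-10 receptor (3.09 ± 0.16), IL1RN, an interleukin-1 antagonist (2.29 ± 0.16), and CSF2RB, the shared beta chain of the GM-CSF receptor (2.12 ± 0.11). As a mean over probe sets, differences were 0.98 for IL1RN.

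NF-kB subunits and feedback genes rose in 12 of 20 and fell in 1 (median 0.46), with NFKBIA, the inhibitor of the factor (1.14 ± 0.16), and RELA (1.04 ± 0.10) higher and REL lower (−0.59 ± 0.11). That 1 fall became 2 without JS-K 24 h replicate 1. Interferon-stimulated genes rose in 7 of 33 and fell in 3 by at least 2-fold, and 4 rose so with the mean of all probe sets. OAS1 rose at least 9.92-fold, IRF9, part of the interferon signalling complex, by 2.54 ± 0.26 and IFIT3 by 2.09 ± 0.24, while MX2 fell by 1.44 ± 0.14 and IFITM1 by 1.46 ± 0.19. When all probe sets were averaged, differences were 0.60 for NFKBIA.

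Immediate early and MAP kinase feedback genes were still above vehicle. Of 31 measured 18 were higher than in vehicle and 3 lower, 17 rises being at least 2-fold (median 1.10). ATF3, a stress transcription factor, had 8.22, 8.18 and 7.83 at 24 h, against 3.12, 3.23 and 2.97 in vehicle. The vehicle arrays were low and the rise was at least 31.4-fold (adjusted p = 2.32e-09). JUN (3.14 ± 0.08) and TRIB1, a pseudokinase (5.16 or more), rose and did not differ from 4 h past the threshold (adjusted p = 0.778 and 0.9). EGR1, an early growth response factor, had 7.32, 7.38 and 7.45 at 24 h, against 9.63, 8.93 and 8.88 in vehicle. It fell by 1.76 ± 0.26 without overlap (adjusted p = 0.000148). With the mean of all probe sets, the difference was 2.07 for ATF3, 1.75 for TRIB1 and −1.15 for EGR1.

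NRF2 targets, the genes of the oxidant response, were split. Of 30 measured 6 rose and 1 fell by at least 2-fold (median of the list 0.10), and 11 were lower than at 4 h and 3 higher. HMOX1, heme oxygenase 1, had 3.65, 4.71 and 4.52 at 24 h, against 2.75, 2.26 and 2.58 in vehicle. It was at least 3.40-fold above vehicle (adjusted p = 0.000435) and far below its 4 h level (24 h minus 4 h −3.22 ± 0.30, adjusted p = 5.56e-06). NQO1, a quinone reductase, had 10.54, 10.67 and 10.53 at 24 h, against 9.00, 9.09 and 9.10 in vehicle, still higher without overlap (1.51 ± 0.09, adjusted p = 4.5e-08).

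SLC7A11, the cystine transporter, was 1.27 ± 0.09 above vehicle and lower than at 4 h (−1.08 ± 0.09). GCLM and GCLC encode the subunits of the enzyme that starts glutathione synthesis. GCLM was not called (0.11 ± 0.09, adjusted p = 0.308), and GCLC fell by 1.62 ± 0.11 (adjusted p = 1.23e-07). In the glutathione and transsulfuration list 1 of 36 rose and 7 fell by at least 2-fold, with CBS (−1.88 ± 0.17) and CTH (−1.74 ± 0.12), which make cysteine from homocysteine, lower. TXNRD1 was not called (adjusted p = 0.246), and GSTP1, a glutathione transferase of the family that activates JS-K, was called at −0.46 ± 0.13, a call that ended without JS-K 24 h replicate 3 or vehicle replicate 2. The mean of all probe sets gave −1.05 for CBS.

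TXNIP, an inhibitor of thioredoxin, had 10.62, 10.61 and 10.56 at 24 h, against 9.15, 8.92 and 8.97 in vehicle. It rose by 1.58 ± 0.08 (adjusted p = 1.03e-08), with the groups apart, and the peroxiredoxins PRDX6 (−1.05 ± 0.09) and PRDX1 (−0.90 ± 0.08) fell. Heat shock chaperones fell by at least 2-fold in 5 of 22 and rose in 1, BAG3 (1.69 ± 0.14). HSPA9, a mitochondrial chaperone, fell by 1.53 ± 0.10 and HSP90AB1 by 1.15 ± 0.08. HSPA5, the main chaperone of the endoplasmic reticulum, fell by 0.76 ± 0.05.

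ATF4 targets and cytosolic tRNA synthetases fell in 22 of 35 and rose in 6 (median −0.55). ASNS, asparagine synthetase (−1.93 ± 0.25), PSAT1, of serine synthesis (−2.09 ± 0.07), and VARS1 (−2.33 ± 0.17) fell, while PPP1R15A, which restores translation, rose by 2.65 ± 0.16. DDIT3, which encodes CHOP, was not called (−0.21 ± 0.13, adjusted p = 0.183), CHAC1 was at background in both groups, and TRIB3 was called at −0.31 ± 0.10, a call that ended without any 1 array of either group. Autophagy genes were balanced, with 5 of 29 higher and 1, VMP1, lower by at least 2-fold (median 0.06). The higher ones included OPTN, an autophagy receptor (2.11 ± 0.13), MAP1LC3B (1.65 ± 0.09) and SQSTM1, which encodes p62 (1.23 ± 0.07). Among HIF targets EPAS1, which encodes HIF-2 alpha, rose by 2.45 ± 0.08, and among heme and iron genes CPOX rose by 1.44 ± 0.11 and FECH, which completes heme, fell by 1.61 ± 0.13. MT1G, a metallothionein, was lower in the probe set used (−2.53 ± 0.18), and another of its probe sets was called in the opposite direction. Averaged over all their probe sets, values were −0.90 for ASNS, 0.68 for SQSTM1, 1.39 for EPAS1 and −1.22 for MT1G.

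Genes of cell death moved on both sides. MCL1, an antiapoptotic member of the BCL2 family, had 11.64, 11.70 and 11.66 at 24 h, against 10.26, 10.39 and 10.36 in vehicle, higher at 24 h without overlap (1.33 ± 0.07, adjusted p = 1.32e-08). XIAP (1.10 ± 0.08), CFLAR, a caspase-8 inhibitor (1.16 ± 0.11), and BCL2A1 (0.81 ± 0.05) rose, and BCL2 fell by 0.56 ± 0.12, a call that ended with the mean of its probe sets (adjusted p = 0.124). BIRC5, survivin, which also acts in mitosis, rose by 1.65 ± 0.11. Of 23 proapoptotic genes 3 rose and 3 fell by at least 2-fold, PMAIP1, encoding NOXA (1.59 ± 0.13), BMF (2.33 ± 0.20) and the low-signal CASP10 being higher and BCL2L11, encoding BIM (−1.90 ± 0.11), HTRA2 (−1.38 ± 0.16) and DIABLO (−1.20 ± 0.08) lower. Over the mean of probe sets the difference came to 0.67 for MCL1, −0.13 for BCL2 and 0.32, under 2-fold, for CASP10.

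Among enzymes of tryptophan and arginine use, TDO2 rose with KYNU, kynureninase (3.71 ± 0.08), and ARG2, arginase 2 (3.71 ± 0.28). ODC1, which starts polyamine synthesis (−2.63 ± 0.09), and SRM, spermidine synthase (−2.60 ± 0.11), fell, and SMOX, spermine oxidase, rose (1.94 ± 0.20). In that list 5 of 24 rose and 5 fell by at least 2-fold. As a mean over probe sets, differences were 2.07 for ARG2 and 1.02 for SMOX.

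The 24 h arrays were also set against the 4 h arrays, a comparison that uses no vehicle array. At 24 h 2535 genes (12.8%) were higher than at 4 h and 2114 (10.7%) lower, a split that turned to 2160 higher and 4438 lower after array medians were subtracted and to 2352 higher and 2619 lower without JS-K 4 h replicate 2. Of the 914 genes raised by at least 2-fold against vehicle, 751 were also higher than at 4 h and 13 were lower, and of the 1402 lowered by at least 2-fold, 965 were lower than at 4 h and 12 higher. Mitosis genes were higher than at 4 h in 45 of 53, and replication genes were lower in 32 of 38. The poly-A spikes differed here too, at 8.47 at 24 h and 7.02 at 4 h, and their part was not tested.

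The list medians against vehicle, at 90 min, 4 h and 24 h, all use the same 3 vehicle arrays. The ribosome biogenesis median was 0.14, −0.68 and −1.63, and the replication median was −0.09, −0.37 and −1.26. The mitosis median was 0.32, 0.38 and 1.13. The Fc receptor and TREM median was 0.22, 0.26 and 1.17, and that of S100 genes 0.08, 0.19 and 0.99. Immediate early genes were at 1.22, 1.36 and 1.10, and cholesterol genes at −0.92, −1.38 and −0.53, so neither list was at its extreme at 24 h.

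**Figure D5:**
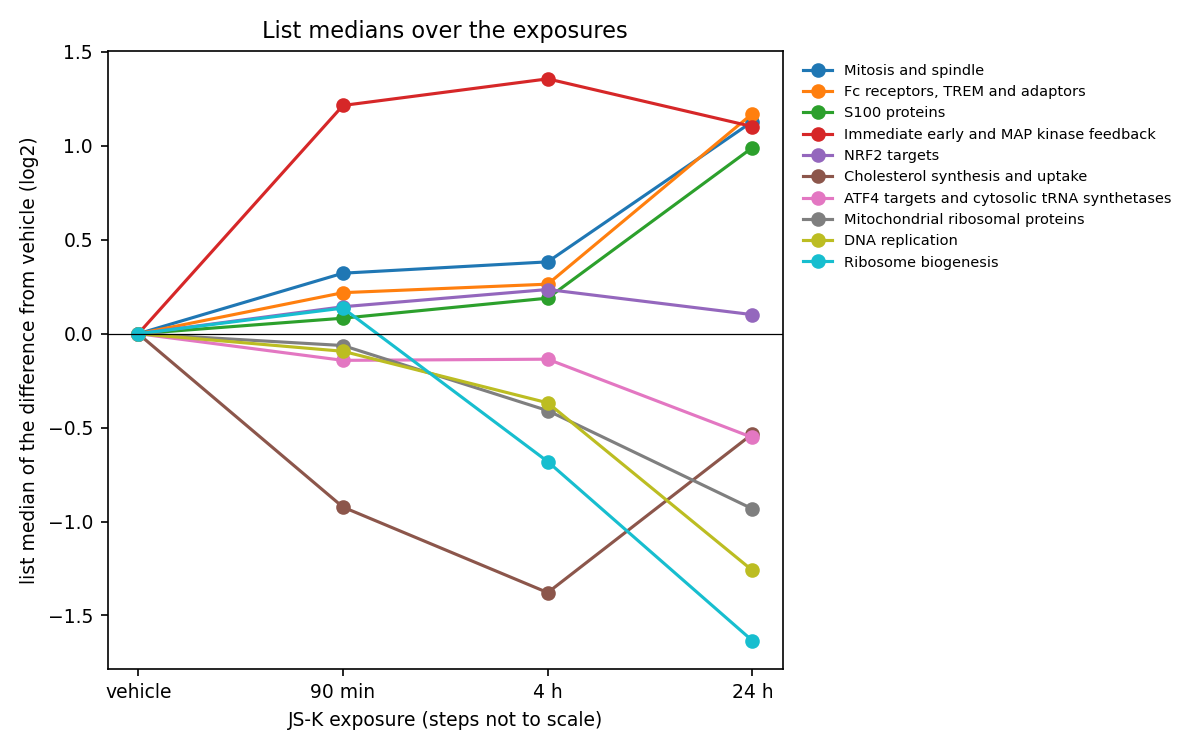
Median difference from vehicle (log2, vertical) of 10 gene lists at vehicle (0), 90 min, 4 h and 24 h of JS-K, with steps not to scale. All points share the vehicle arrays. The ribosome biogenesis line ends lowest (−1.63) and the Fc receptor line highest (1.17), and cholesterol genes turn back toward 0 between 4 h (−1.38) and 24 h (−0.53).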

How the data were processed

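RNA of the 12 U937 samples was measured on Affymetrix arrays after labelling from random hexamers, per the labels' protocols. The deposited series matrix holds log2 values for 54675 probe sets, made by the authors with GCRMA in Affymetrix Expression Console, per the submitters' processing notes. GCRMA corrects background, quantile-normalizes and summarises probes, which compresses low signal. Scanner files were not used here.

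Probe sets were named through the platform annotation and RefSeq symbols (41097 had 1 symbol, 1801 several and 11777 none), and each of 19775 genes was read from its brightest probe set on average. Control probe sets stayed out of the fit. limma 3.58.1 in R 4.3.3 fitted the 4 groups on all 12 arrays with a mean-dependent spread, and p-values were adjusted by Benjamini-Hochberg over 19775 genes. With 3 arrays a group, the number of arrays limits the precision. The fit was tested on simulated data with known changes.

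Genes were named by size of change among those with non-overlapping arrays and a mean of at least 6, by up to 6 called members per list and 2 in the other direction, and from 38 listed genes. The members and lists were chosen with earlier results of these data known. The labels do not say whether same-numbered samples were paired, and the main fit used no pairing. Same-numbered samples' deviations from their group means correlated at −0.0416 to 0.0183, and different-numbered ones at −0.0354 to 0.0465. With 3 samples a group these values cannot settle whether samples were paired. Alternatives were other normalizations, probe set rules, fits and leaving out each array. Promoter windows came from RefSeq (GRCh38.p14). The build of the deposited annotation is not given in the sources used here.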

Additional observations from a re-analysis of the deposited data

Results flagged for a closer look

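Genes called in opposite directions against vehicle at 4 h and at 24 h were flagged, with both times sharing the vehicle arrays. That choice fixed the direction of 24 h minus 4 h in advance. The difference is therefore given as a size and not as a test. Of the flagged genes, 6 were lower at 24 h than at 4 h. The flagged genes were all among those named by rule, and are not a count over all genes. CCNE2 differed by −2.30, CYBB by −2.01, EGR1 by −2.53, RBL1 by −2.03, SIRPB1, under 4 at 24 h, by −2.04 and VMP1 by −2.48 on the log2 scale, and these 6 were higher than vehicle at 4 h and lower at 24 h. TXNIP went the other way, with 24 h minus 4 h at 2.60. Another probe set of RBL1 was called in the opposite direction.

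Control features outside the gene comparison were above their vehicle levels at 24 h. The poly-A spikes averaged 8.47 at 24 h, against 3.04 in vehicle, the hybridization spikes 11.70 at 24 h, against 9.96 in vehicle, and 28S ribosomal RNA 8.03 at 24 h, against 6.59 in vehicle. Their part in the results was not tested. Groups of 3 arrays were too small for the test of single outlying samples. JS-K 4 h replicate 2, which was in the shared fit, stood apart from the other 4 h arrays. The SD of its log2 differences from replicates 1 and 3 was 0.3535 and 0.3474, against 0.1847 between those. Its upper quartile was 6.20, against 6.59 and 6.57, and its ACTB 3′ minus 5′ difference 1.15, against 0.81 and 0.93.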

How the results depend on the processing

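Genes called higher at 24 h than in vehicle numbered 11458 with array weights, 10514 in a fit of the 6 arrays alone, 10291 without JS-K 4 h replicate 2 and 951 against a fold of 1.5 (treat), beside 3518. Genes called lower numbered 1408 against a fold of 1.5, beside 3735. Leaving out 1 array of either group gave 2575 to 2963 higher and 3300 to 3487 lower. The replicate block gave 4232 higher and 3786 lower, and changed no call among the 393 named genes. Against 4 h (2535 higher and 2114 lower), subtracting array medians gave 4438 lower, array weights 4149 higher and 3749 lower, and treat 477 higher and 497 lower. Leaving out 1 array there gave 2135 to 2654 higher and 1801 to 2619 lower. The cause was not tested. Counts of called changes of at least 2-fold, added after seeing the data, ranged from 635 to 1078 higher (beside 914) and from 1059 to 1563 lower (beside 1402). The balance of calls turned in some settings. Against vehicle, lower calls outnumbered higher ones in the main analysis but not with array weights (4714 lower), the 6 arrays alone (4055 lower), the replicate block or without JS-K 4 h replicate 2 (4214 lower). Against 4 h, higher calls outnumbered lower ones except after array medians were subtracted (2160 higher), with treat and without JS-K 4 h replicate 2 (2352 higher, 2619 lower). No called gene named by rule changed sign with the mean of all probe sets, which ended 16 of 382 calls. Signals under 4 carry little order, so small differences there are the least certain.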

Other observations

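Gene families outside the lists, chosen after their values were seen, also moved. Of 15 measured genes with the TIMM prefix, of the mitochondrial inner membrane import machinery, 14 fell and 0 rose (median −0.97), and 6 of 7 TOMM genes of the outer membrane fell (median −1.15). Of 34 PSM genes, most of them proteasome subunits, 30 fell and 1 rose (median −0.38), and 8 of 10 EXOSC genes of the RNA exosome fell. The arginine methyltransferase genes PRMT1 (−2.48), PRMT3 (−2.22) and PRMT5 (−2.20) fell, while PRMT2 rose by 0.43.

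Single genes picked for the size of their change, after their values were seen, stand for no group. ANXA1, annexin A1, rose by 3.26, PALLD, an actin-bundling protein, by 3.41, TPM4, a tropomyosin, by 2.67, LMNA, encoding lamins A and C, by 2.51, GSN, gelsolin, by 2.37 and VIM, vimentin, by 1.18. Of 11 measured ANXA genes 6 rose and 1 fell, and of 3 TPM genes 2 rose. The mismatch repair genes MSH6 (−2.67) and PMS1 (−2.79) fell.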
